A study of Mus musculus with 8 samples.

Results

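The 8 genes described here are expressed by macrophages and other myeloid white blood cells: Mpeg1, Adgre1, Csf1r, Cd14, Lyz2, Cd68, Itgam and Itgax. Each was read by 1 probe set that names it alone, and together they are 8 of 19938 genes with such a probe set. Another 3 probe sets name Itgam together with the ribosomal protein gene Rpl35 and were not used. RNA came from small intestinal epithelial cells of 8-week-old male mice of the outbred ICR stock, isolated 4 days after nucleic acids were delivered in the living animal. There were 3 arrays labelled siYAP/TAZ (siRNAs against YAP and TAZ), 3 labelled siGFP (an siRNA against GFP, a jellyfish protein), 1 labelled shYAP/TAZ (plasmids for shRNAs against YAP and TAZ) and 1 labelled shLacZ (a control shRNA plasmid directed at the bacterial gene LacZ). Neither the number of mice behind an array nor the cells that took up the nucleic acids is given in the sources used here, so the p-values take in no more than the spread of these arrays, part of which may be technical. With 1 array per group, the shRNA comparison has no replicate check and no test. The 4 comparisons follow from the labels, which assign 1 control array to each YAP/TAZ array: siRNA 1, siRNA 2, siRNA 3 and shRNA.

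The intestinal wall holds a large population of macrophages that lie beneath the epithelium, take up bacteria and dying cells and are replaced from blood monocytes. An epithelial isolate is expected to hold few of them. Their survival depends on Csf1r, the receptor for the growth factors Csf1 and Il34, and their genes are switched on by PU.1, the transcription factor encoded by Spi1. Adgre1 encodes F4/80, the classical surface marker of mouse macrophages. Cd14 is the co-receptor that hands bacterial lipopolysaccharide to Tlr4. Itgam and Itgax encode CD11b and CD11c, integrin chains that pair with Itgb2; CD11b is also carried by neutrophils and CD11c by dendritic cells. Lyz2 encodes the lysozyme of phagocytes, Cd68 a glycoprotein of their lysosomes, and Mpeg1 perforin-2, a pore-forming protein that acts on engulfed bacteria.

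All levels below are log2 intensities after quantile normalization, and all differences are log2 differences of a YAP/TAZ-labelled sample minus its control. A first principal component with 56.8% of the variance set siYAP/TAZ 2, siYAP/TAZ 3 and siGFP 3 (scores of 57.5 to 64.5) apart from the other arrays (-70.3 to -1.67), across the groups. The targeted genes were not measurably lower in the arrays labelled siYAP/TAZ: the difference was -0.12 (SE 0.32) for Yap1 and -0.28 (SE 0.36) for Wwtr1, which encodes TAZ (limma, adjusted p = 1.00 for both). In the shRNA comparison they differed by -0.09 and 0.06. The direction of every difference below therefore rests on the labels.

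In the shRNA comparison all 8 genes were higher in the array labelled shYAP/TAZ than in the shLacZ array, with a median difference of 1.21, beside a median of -0.02 over all genes. In the siRNA arm none of the 8 differed beyond the spread between arrays, and 7 of the 8 had a slightly lower mean in the siYAP/TAZ arrays (median -0.17, beside -0.02 over all genes). Of all genes, 47.8% were higher and 52.2% lower in shYAP/TAZ 1, and 1.84% were at least 2-fold higher and 2.76% at least 2-fold lower. Of the 8 genes, 4 were at least 2-fold higher, namely Mpeg1, Itgam, Csf1r and Adgre1, and none was that much lower. The 8 genes and the further lists were chosen with earlier results of these data known. The shares over all genes are therefore a description and not a test. In bulk samples of this kind, more cells of a type and more RNA per cell cannot be told apart.

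**Figure D1:**
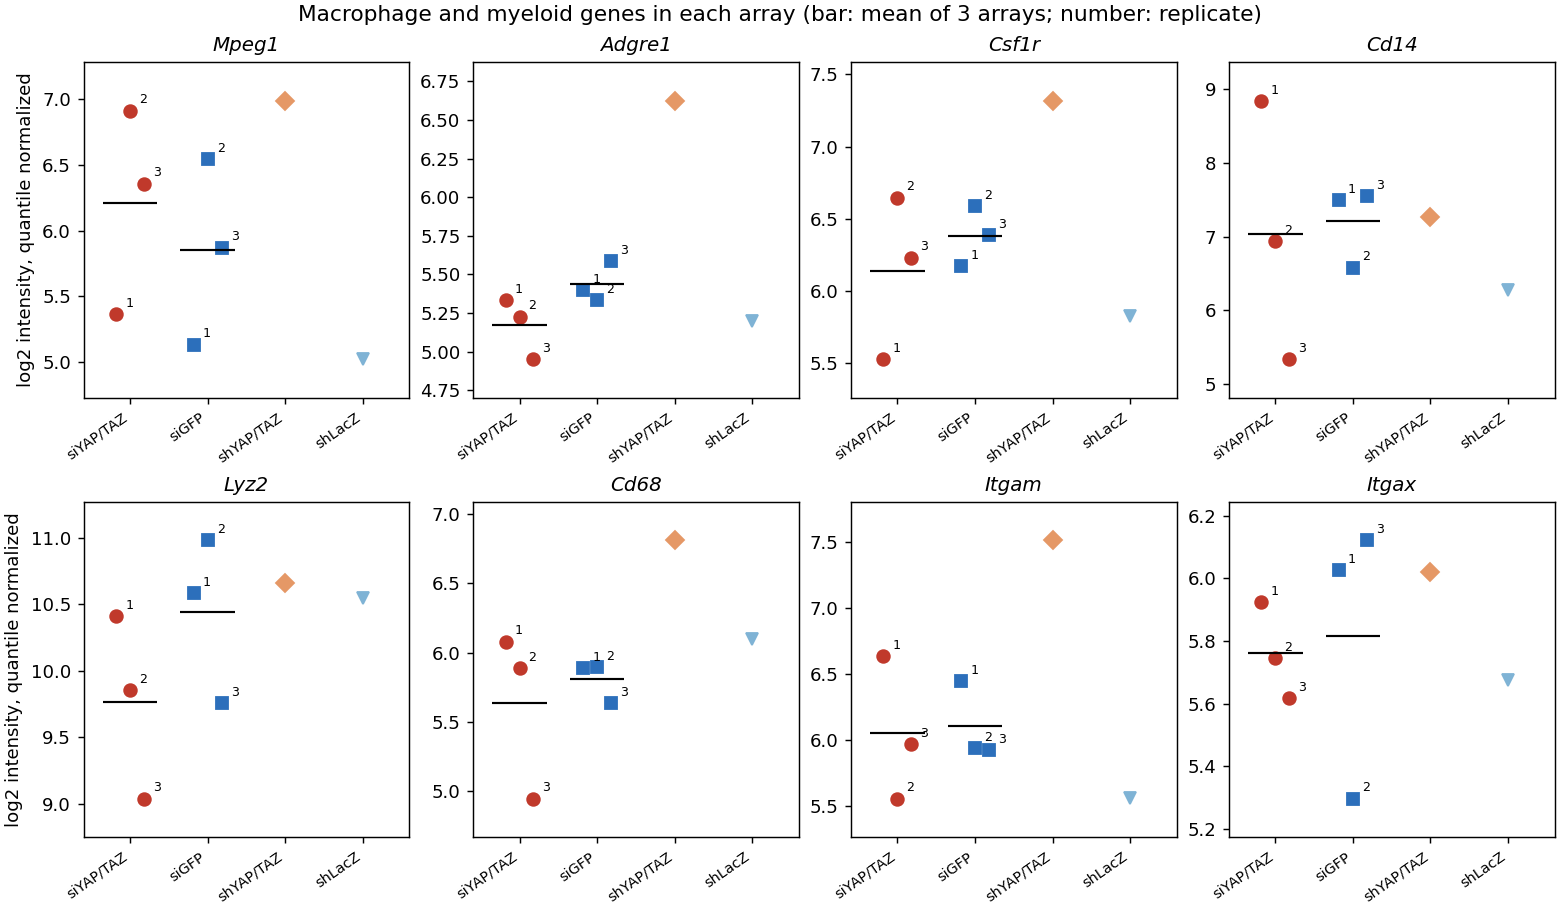
Log2 intensity of each of the 8 genes (vertical axes, own scale per gene) in the 8 arrays, grouped on the horizontal axis as siYAP/TAZ, siGFP, shYAP/TAZ and shLacZ. Points are single arrays, numbers are replicate numbers and horizontal bars are means of 3 arrays. The shYAP/TAZ point is the highest of all 8 arrays for Mpeg1, Adgre1, Csf1r, Cd68 and Itgam, whereas the siYAP/TAZ and siGFP points overlap for every gene.

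Most of these genes gave dim signals, which compresses differences. As a gauge of dimness, 1027 olfactory receptor genes were taken, which gut cells are not known to use widely, and the 95th percentile of their levels was 6.44 to 6.96 across the arrays. Adgre1 and Itgax lay above that percentile in 0 of 8 arrays, Cd68 in 1, Csf1r and Itgam in 2, Mpeg1 in 3, Cd14 in 6 and Lyz2 in 8. By array, 6 of the 8 genes lay above it in shYAP/TAZ 1, against 1 in shLacZ 1, and between 1 and 4 did so in the siRNA arrays. Adgre1, the defining macrophage gene of the set, was thus at or below the gauge in every array. Probe sets differ in brightness for the same amount of RNA, so these values do not rank the genes by abundance.

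PU.1 binds a purine-rich element with the core GAGGAA, and Spi1, its gene, read 6.77 in shYAP/TAZ 1, against 5.79 in shLacZ 1, a difference of 0.98. Its siRNA difference was 0.23 (SE 0.36), which turned to -0.02 without siYAP/TAZ 2. The promoters of Itgam, Cd68 and Mpeg1 are shown because these 3 genes were all higher in shYAP/TAZ 1 and differ in whether they hold that core. Each stretch of 300 bases, from RefSeq's GRCm38.p6 annotation, runs 5′ to 3′ along the gene from 250 bases before its start to 50 after, and capitals mark GAGGAA or, for the other strand, TTCCTC. Itgam holds 3 matches, Cd68 2 and Mpeg1 0.
Itgam, chr7:128062390-128062689, plus strand: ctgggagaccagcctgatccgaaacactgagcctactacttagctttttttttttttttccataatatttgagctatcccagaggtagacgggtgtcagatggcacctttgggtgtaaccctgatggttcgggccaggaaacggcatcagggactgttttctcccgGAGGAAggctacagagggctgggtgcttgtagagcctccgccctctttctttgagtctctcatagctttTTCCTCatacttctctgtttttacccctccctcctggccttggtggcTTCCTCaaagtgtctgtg
Cd68, chr11:69666121-69666420, minus strand: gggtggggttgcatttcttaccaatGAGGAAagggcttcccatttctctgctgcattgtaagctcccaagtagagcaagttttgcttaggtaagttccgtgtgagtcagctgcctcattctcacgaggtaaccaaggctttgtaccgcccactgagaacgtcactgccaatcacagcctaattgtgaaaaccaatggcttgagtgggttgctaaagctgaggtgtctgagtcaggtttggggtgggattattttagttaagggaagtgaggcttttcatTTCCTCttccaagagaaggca
Mpeg1, chr19:12460520-12460819, plus strand: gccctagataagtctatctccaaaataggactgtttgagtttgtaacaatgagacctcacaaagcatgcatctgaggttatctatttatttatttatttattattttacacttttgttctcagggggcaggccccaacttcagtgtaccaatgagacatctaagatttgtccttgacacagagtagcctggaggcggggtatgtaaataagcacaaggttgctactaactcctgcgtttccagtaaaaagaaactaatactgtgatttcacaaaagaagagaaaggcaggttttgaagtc
The core occurs on either strand in 28.3% of 32851 promoters of this length, and in 2 of the 5 promoters of the 8 genes that were searched, those of Itgam, Itgax, Lyz2, Cd68 and Mpeg1. A match is a run of letters, not a binding site. The 2 promoters with matches belong to genes that differed by 1.96 and 0.71 in the shRNA comparison, and those without to genes that differed by 0.34, 0.11 and 1.97, so the ranges overlapped.

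Csf1r, the growth factor receptor on which macrophages depend, read 7.32 in shYAP/TAZ 1, against 5.82 in shLacZ 1. The difference of 1.49, or 2.82-fold, placed shYAP/TAZ 1 at 0.67 above the next array, siYAP/TAZ 2. With siRNA, Csf1r read 5.53, 6.65 and 6.23 in siYAP/TAZ 1 to 3, against 6.17, 6.59 and 6.39 in siGFP 1 to 3. The groups overlapped, with siYAP/TAZ 1 the lowest and siYAP/TAZ 2 the highest of the 6. The means were 6.13 ± 0.56 in siYAP/TAZ and 6.38 ± 0.21 in siGFP (SD, n = 3 each), a difference of -0.25 (SE 0.35), with a 95% interval of -1.05 to 0.56 (exact permutation test, two-sided, p = 0.7), which turned to 0.06 without siYAP/TAZ 1.

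Adgre1, the F4/80 gene, read 6.62 in shYAP/TAZ 1, against 5.20 in shLacZ 1, a difference of 1.43 or 2.69-fold. The next highest array, siGFP 3, lay 1.04 lower. Among siRNA arrays Adgre1 read 5.33, 5.23 and 4.95 in siYAP/TAZ 1 to 3, against 5.40, 5.33 and 5.58 in siGFP 1 to 3. Adgre1 was the most even gene across the siRNA controls, and siYAP/TAZ 1 lay just above siGFP 2, so that the groups overlapped by that one array. The means were 5.17 ± 0.20 and 5.44 ± 0.13 (siYAP/TAZ and siGFP, SD, n = 3 each), a difference of -0.27 (SE 0.28), with a 95% interval of -0.90 to 0.37 (exact permutation test, two-sided, p = 0.2). The 3 siRNA differences were -0.06, -0.11 and -0.63, all opposite in sign to the shRNA difference; the difference between the arms was not tested.

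The integrin chain Itgam read 7.51 in shYAP/TAZ 1, against 5.56 in shLacZ 1, a difference of 1.96 or 3.88-fold. The next array, siYAP/TAZ 1, lay 0.88 lower. Within the siRNA arm Itgam read 6.64, 5.56 and 5.97 in siYAP/TAZ 1 to 3, against 6.45, 5.94 and 5.93 in siGFP 1 to 3. Both arrays numbered 1 stood above the other 4, in either group. The difference of the means was -0.05 (SE 0.36), with a 95% interval of -0.86 to 0.76 (exact permutation test, two-sided, p = 1), at 6.05 ± 0.55 in siYAP/TAZ and 6.10 ± 0.30 in siGFP (SD, n = 3 each). It turned to 0.20 without siYAP/TAZ 2 and to 0.12 without siGFP 1. The second integrin chain, Itgax, varied least of the 8 genes, over a range of 0.82 across all arrays. It read 6.02 in shYAP/TAZ 1, against 5.68 in shLacZ 1, a difference of 0.34. With siRNA the values were 5.92, 5.75 and 5.62 in siYAP/TAZ 1 to 3, against 6.03, 5.30 and 6.12 in siGFP 1 to 3. The siGFP arrays thus held both the lowest and the highest value, and shYAP/TAZ 1 lay inside their range. The difference was -0.05 (SE 0.32), with a 95% interval of -0.78 to 0.68 (exact permutation test, two-sided, p = 0.9) and turned to 0.02, 0.05 or 0.10 without siYAP/TAZ 3, siGFP 1 or siGFP 3. Itgb2, the chain with which both pair, read 7.36 in shYAP/TAZ 1, against 5.87 in shLacZ 1, a difference of 1.49. With siRNA Itgb2 differed by 0.12 (SE 0.42), which turned to -0.17 without siYAP/TAZ 3 and to -0.04 without siGFP 1.

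Mpeg1, the perforin-2 gene, was the only one of the 8 that was higher in all 4 comparisons, as were 6.02% of all genes; none of the 8 was lower in all 4, as 8.95% were. Higher in all 3 siRNA comparisons were 9.38% of genes and, of the 8, Mpeg1 alone; lower in all 3 were 12.9% and, of the 8, Adgre1 and Lyz2. Mpeg1 read 6.99 in shYAP/TAZ 1, against 5.02 in shLacZ 1, a difference of 1.97 or 3.91-fold. The control shLacZ 1 was the lowest of all 8 arrays, and siYAP/TAZ 2 lay only 0.07 below shYAP/TAZ 1. Among siRNA arrays Mpeg1 read 5.36, 6.91 and 6.36 in siYAP/TAZ 1 to 3, against 5.13, 6.54 and 5.87 in siGFP 1 to 3. In each group the array numbered 1 was the lowest and the array numbered 2 the highest, and differences between numbers exceeded those between groups. The means were 6.21 ± 0.79 in siYAP/TAZ and 5.85 ± 0.71 in siGFP (SD, n = 3 each), and the difference was 0.36 (SE 0.49), with a 95% interval of -0.75 to 1.48 (exact permutation test, two-sided, p = 0.6). It stood at 0.01 without siYAP/TAZ 2 and at 0.79 without siYAP/TAZ 1; among the controls, leaving out siGFP 1 gave 0.00 and leaving out siGFP 2 gave 0.71.

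Cd68, the lysosomal glycoprotein gene, read 6.81 in shYAP/TAZ 1, against 6.10 in shLacZ 1. The difference was 0.71, or 1.64-fold, and unlike for Mpeg1 the shLacZ array was the second highest of the 8. Values in the siRNA arm were 6.08, 5.89 and 4.94 in siYAP/TAZ 1 to 3, against 5.89, 5.90 and 5.64 in siGFP 1 to 3. The low value of siYAP/TAZ 3 set the direction of the mean difference of -0.17 (SE 0.36), with a 95% interval of -0.98 to 0.65 (exact permutation test, two-sided, p = 0.8), which turned to 0.18 without that array. Several other lysosome genes are used by all cells and were measured beside it. Of 9 measured, 2 were higher and 7 lower in shYAP/TAZ 1 (median -0.09), and in the siRNA arm 1 had a higher and 8 a lower mean (median -0.12).

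Cd14, the lipopolysaccharide co-receptor gene, varied most of the 8, over 3.50 on the log2 scale. It read 8.84, 6.94 and 5.34 in siYAP/TAZ 1 to 3, against 7.50, 6.58 and 7.55 in siGFP 1 to 3. The siYAP/TAZ arrays held both the highest and the lowest value of all 8 arrays. The siRNA comparisons ran in both directions, at 1.34, 0.36 and -2.21. The means of Cd14 were 7.04 ± 1.75 in siYAP/TAZ and 7.21 ± 0.55 in siGFP (SD, n = 3 each), a difference of -0.17 (SE 0.76), with a 95% interval of -1.91 to 1.57 (exact permutation test, two-sided, p = 1). It stood at 0.68 without siYAP/TAZ 3, -1.07 without siYAP/TAZ 1, -0.49 without siGFP 2 and 0.00 without siGFP 3. In the shRNA arm Cd14 read 7.27 in shYAP/TAZ 1, against 6.28 in shLacZ 1, a difference of 0.99 or 1.99-fold. Tlr4 and Ly96, which complete the lipopolysaccharide receptor, differed by 0.09 and -0.31 in that comparison.

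Lyz2, the phagocyte lysozyme gene, gave the widest mean difference of the 8 genes in the siRNA arm. It read 10.41, 9.86 and 9.04 in siYAP/TAZ 1 to 3, against 10.58, 10.98 and 9.76 in siGFP 1 to 3. The groups overlapped, because siGFP 3 lay below both siYAP/TAZ 1 and siYAP/TAZ 2. The means were 9.77 ± 0.69 in siYAP/TAZ and 10.44 ± 0.62 in siGFP (SD, n = 3 each), a difference of -0.67 (SE 0.45), with a 95% interval of -1.69 to 0.35 (exact permutation test, two-sided, p = 0.3). Without siYAP/TAZ 3 it stood at -0.31, without siGFP 2 at -0.40 and without siGFP 3 at -1.01. In the shRNA arm it read 10.66 in shYAP/TAZ 1, against 10.55 in shLacZ 1, a difference of 0.11, the smallest of the 8. Lyz1, the neighbouring paralog that Paneth cells secrete as an antimicrobial enzyme, read 12.35, 10.89 and 10.47 in siYAP/TAZ 1 to 3, against 12.37, 12.56 and 11.06 in siGFP 1 to 3. In both lysozyme genes siYAP/TAZ 2, siYAP/TAZ 3 and siGFP 3 were the 3 lowest of the 8 arrays and siGFP 2 the highest. They parted in the shRNA comparison, where Lyz1 differed by -0.64 and all 6 measured Paneth cell markers were lower (median -0.54). Paralogs of similar sequence can share array signal; whether these 2 probe sets do was not tested.

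**Figure D2:**
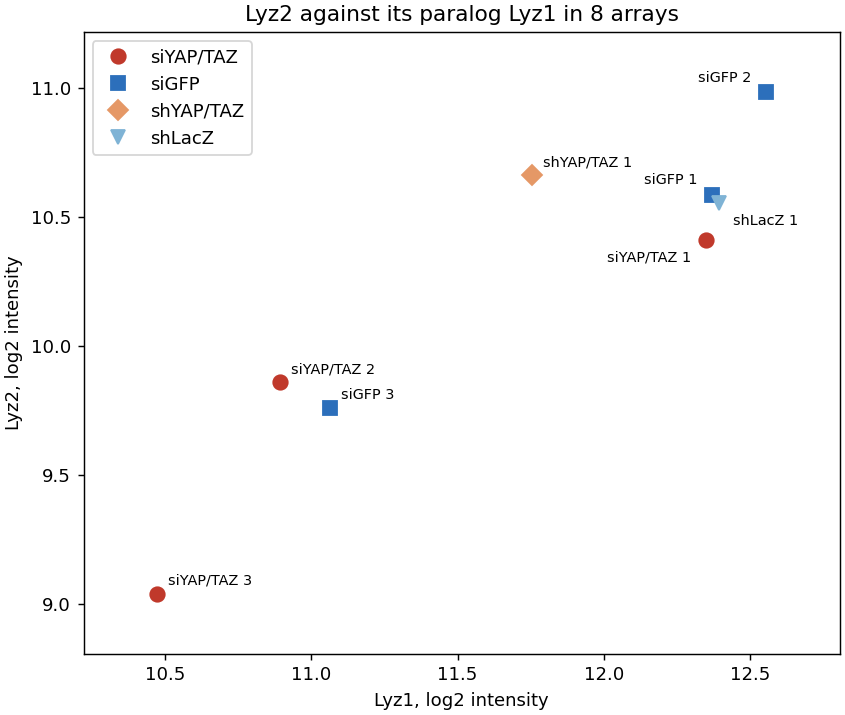
Log2 intensity of Lyz2 (vertical axis) against its paralog Lyz1 (horizontal axis), 1 point per array, with symbols by group. The 3 arrays at lower left, siYAP/TAZ 3, siYAP/TAZ 2 and siGFP 3, have the lowest values of both genes, and shYAP/TAZ 1 has a Lyz2 level of 10.66 at a Lyz1 level of 11.75.

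Across the siRNA arm as a whole, limma called 0 of 19938 genes higher and 0 lower (0% each), and the adjusted p of all 8 genes was 1.00. Without siYAP/TAZ 1 it called 13 genes, none of the 8 among them. Without adjustment 237 genes (1.19%) had a p under 0.05, 0.426% higher and 0.762% lower, and none of the 8 was among them. Arrays of the groups did not overlap for 1.6% of genes higher and 2.99% lower in siYAP/TAZ, and again for none of the 8. The mean was lower in siYAP/TAZ for 7 of the 8 genes, beside 53.6% of all genes, and higher for 1, beside 46.4%. The intervals of Csf1r, Cd14, Lyz2 and Mpeg1 reached beyond a 2-fold change in at least one direction, and that of Cd68 came just short of one. An exact test of 3 arrays against 3 cannot give a p below 0.1. The median of the 8 turned to 0.01 without siYAP/TAZ 3.

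By comparison, the 8 genes split 4 higher and 4 lower in siRNA 1 (median 0.06), where 47% of all genes were higher and 53% lower. They split 4 and 4 in siRNA 2 (median 0.02), where 51.1% of all genes were higher and 48.9% lower. In siRNA 3, 2 were higher and 6 lower (median -0.57), beside 45.5% and 54.5% of all genes. The array siYAP/TAZ 3 was the lowest of all 8 arrays for Adgre1, Cd14, Lyz2 and Cd68, as it was for 10.6% of all genes. Differences of at least 2-fold were few: Cd14 was that much higher in siRNA 1, Lyz2 that much lower in siRNA 2 and Cd14 that much lower in siRNA 3. Of all genes, 2.02% were that much higher and 2.34% lower in siRNA 1, 4.79% and 8.36% in siRNA 2, and 2.16% and 1.66% in siRNA 3. The shRNA comparison was the only one of the 4 in which all 8 genes lay on one side. In that comparison shYAP/TAZ 1 was the highest of the 8 arrays for 5 of the 8 genes, as for 9.04% of all genes, and shLacZ 1 was the lowest or second lowest for 5, as for 17.3% of all genes.

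**Figure D3:**
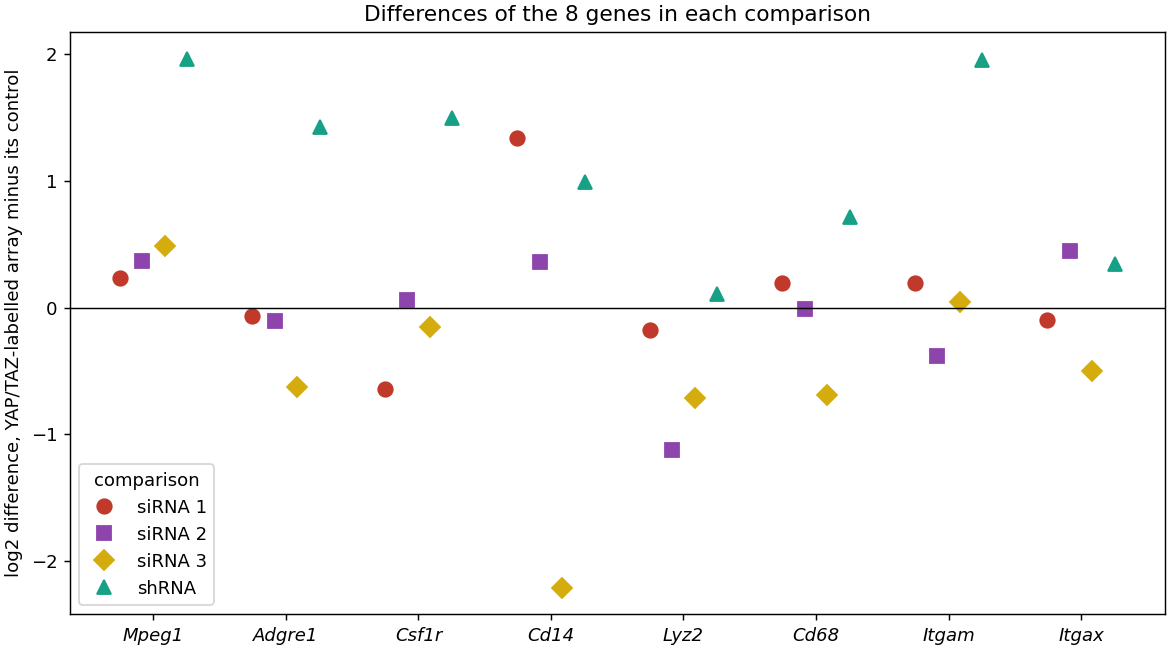
Log2 difference (vertical axis) of each of the 8 genes (horizontal axis) in the 4 comparisons, each a YAP/TAZ-labelled array minus the control array its label assigns. The shRNA triangles lie above 0 for all 8 genes, from 0.11 for Lyz2 to 1.97 for Mpeg1, while the siRNA points scatter on both sides, with Cd14 between 1.34 and -2.21.

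Other myeloid genes were read from lists beside the 8. Of 14 genes shared by phagocytes, 12 were measured, and all 12 were higher in shYAP/TAZ 1 than in shLacZ 1 (median 0.92), 3 of them at least 2-fold. Cybb, the catalytic chain of the phagocyte oxidase, read 8.34 in shYAP/TAZ 1, against 5.44 in shLacZ 1, a difference of 2.89 or 7.44-fold. Csf2rb, a receptor chain for Csf2, differed by 1.28 and Itgb2 by 1.49; Fcer1g and Fcgr3, of the antibody receptors, differed by 0.95 and 0.89. With siRNA, 11 of the 12 had a higher mean in siYAP/TAZ (median 0.22), beside 46.4% of all genes. They were led by Ncf4 at 0.76 (SE 0.39) and Cybb at 0.71 (SE 0.45), both subunits of that oxidase. Cybb stood at 0.25 without siYAP/TAZ 2. None of the 12 passed the limma threshold over all genes. Their medians were 0.21, 0.49 and 0.14 in siRNA 1 to 3, and Ncf4 differed by 0.41, 1.61 and 0.26. B cell markers also had their highest median in siRNA 2, at 3.06. The part of B cells in these values was not tested.

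A separate list of macrophage markers had a smaller median. Of 13 measured genes, 11 were higher and 2 lower in shYAP/TAZ 1, with a median of 0.32 and none at least 2-fold. The highest differences of the list were 0.57 for Cx3cr1, 0.55 for Apoe, 0.52 for Fcgr1, 0.48 for Mrc1 and 0.45 for Trem2. The complement genes C1qa, C1qb and C1qc, which resident macrophages express strongly, differed by 0.16, 0.32 and 0.39, and Ms4a7, Cd163 and Timd4 by 0.03, 0.19 and -0.01. C1qa read 7.34 in shYAP/TAZ 1, against 7.19 in shLacZ 1, and was highest in siYAP/TAZ 3, at 8.01, the array in which Adgre1 and Cd68 were lowest. Mertk, a receptor for dying cells, differed by -0.53. Of these markers, C1qc, Ms4a7, Cd163, Timd4, Cx3cr1, Fcgr1, Mrc1 and Trem2 lay below the olfactory receptor gauge in both shRNA arrays. C1qa, Apoe and Mertk lay above it in both, and C1qb in shYAP/TAZ 1 only. Dim signal compresses differences, and its part in the smaller median was not tested. With siRNA, 5 of the 13 had a higher and 8 a lower mean (median -0.07). Mrc1, the macrophage mannose receptor gene, was the one of them whose groups did not overlap: it read 6.45, 6.02 and 6.13 in siYAP/TAZ 1 to 3, against 5.55, 5.27 and 5.79 in siGFP 1 to 3. Mrc1 was thus higher without overlap, as were 1.6% of all genes, but it lay below the olfactory receptor gauge in every array. Its difference of 0.66 (SE 0.30) did not pass (limma, adjusted p = 1.00). Complement, Cd163, Ms4a7 and Timd4, together with Csf1r, Adgre1 and Mpeg1, were thus measured on the same pair of shRNA arrays with values that ranged from -0.01 to 1.97.

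Some neutrophil genes, but not all of those listed, stood high in siYAP/TAZ 1 and shYAP/TAZ 1. S100a9, a calcium-binding protein abundant in neutrophils, read 8.21, 5.34 and 5.36 in siYAP/TAZ 1 to 3, against 5.13, 5.51 and 5.45 in siGFP 1 to 3. In the shRNA arm it read 7.40 in shYAP/TAZ 1, against 5.14 in shLacZ 1. Cxcr2, a neutrophil chemokine receptor, and Retnlg were both named after their values were seen. They too were highest in these arrays, though with shYAP/TAZ 1 above siYAP/TAZ 1. Cxcr2 differed by 1.73 in siRNA 1 and 2.22 in the shRNA comparison, and Retnlg by 1.95 and 2.57. In siRNA 2 and 3, S100a9, Cxcr2 and Retnlg differed by -0.21 to 0.26. Ly6g, the gene of the antigen that defines mouse neutrophils, read 9.45 in siYAP/TAZ 1 and 4.23 to 4.72 in the other 7 arrays, shYAP/TAZ 1 included at 4.53. Of the 9 measured monocyte and neutrophil markers, 5 were at least 2-fold higher in siRNA 1 (median 1.73) and 4 in the shRNA comparison (median 0.48). Mpo and Elane, enzymes of neutrophil granules, differed by -0.11 and 0.68 in siRNA 1 and by -0.22 and 0.19 in the shRNA comparison, and Csf3r, a growth factor receptor of neutrophils, by -0.08 and 0.48. Ccr2, a chemokine receptor of monocytes, differed by 0.40 in the shRNA comparison and -0.01 in siRNA 1. The mean siRNA differences of Ly6g, S100a9 and S100a8 were 1.70 (SE 1.16), 0.95 (SE 0.70) and 0.67 (SE 0.60), and they stood at 0.05, -0.01 and -0.12 without siYAP/TAZ 1. Of the 8 genes, Cd14 had its highest value in siYAP/TAZ 1, and Itgam its second highest, whereas Csf1r was at its lowest there; the part of neutrophils in these values was not tested.

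**Figure D4:**
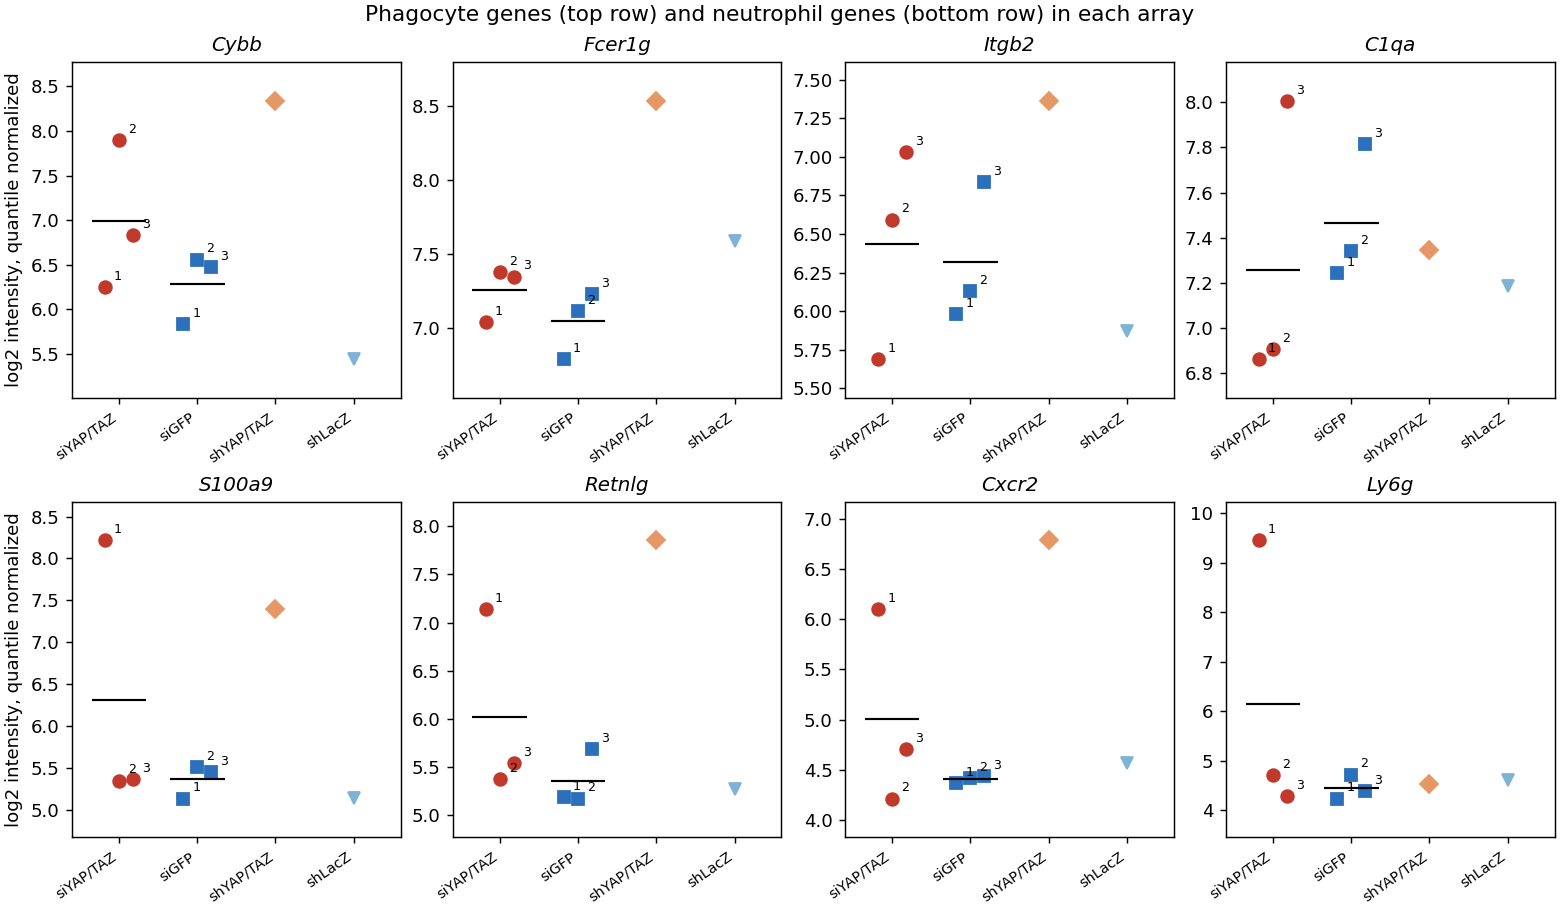
Log2 intensity (vertical axes, own scale per gene) of phagocyte genes in the top row and neutrophil genes in the bottom row, in the 8 arrays grouped as siYAP/TAZ, siGFP, shYAP/TAZ and shLacZ; points are arrays, numbers are replicate numbers and bars are means of 3. Cybb, Fcer1g and Itgb2 are highest in shYAP/TAZ 1 and C1qa in siYAP/TAZ 3, S100a9, Retnlg and Cxcr2 are high in both siYAP/TAZ 1 and shYAP/TAZ 1, and Ly6g only in siYAP/TAZ 1.

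Stem cell, lymphocyte and epithelial markers were not higher throughout in the shRNA comparison, as the 8 genes were. All 6 stem cell markers were lower in shYAP/TAZ 1 (median -1.06), 4 of them at least 2-fold, with Olfm4, a gene of crypt base stem cells, at -1.90 and Lgr5, the receptor that marks those cells, at -1.06. All 6 also had a lower mean in siYAP/TAZ (median -0.92), and none passed (limma, adjusted p = 1.00 for each). The part of this shift in the values of the 8 genes was not tested. All 9 measured B cell markers were lower in shYAP/TAZ 1 (median -0.78), and T cell markers split 5 higher and 5 lower (median -0.03). Pan-leukocyte genes were higher for 7 of 8 (median 0.50), and epithelial genes split 4 and 4 (median -0.09). Fibroblast markers split 4 and 4 (median 0.08), but Fn1, which encodes fibronectin, and Vim, which encodes vimentin, differed by 2.36 and 1.56. Both genes are also used by macrophages, and which cells gave these values was not tested. Among the lists, B cell markers had the highest median siRNA difference (1.51), with medians of 0.05, 3.06 and 1.60 in siRNA 1 to 3, beside medians of 0.06, 0.02 and -0.57 for the 8 genes. Mean levels of the B cell list were 4.98, 8.01 and 6.99 in siYAP/TAZ 1 to 3, against 4.95, 4.88 and 5.55 in siGFP 1 to 3, and those of the 8 genes 6.76, 6.60 and 6.06, against 6.64, 6.64 and 6.60. The part of B cells in the siRNA values of the 8 genes was not tested.

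**Figure D5:**
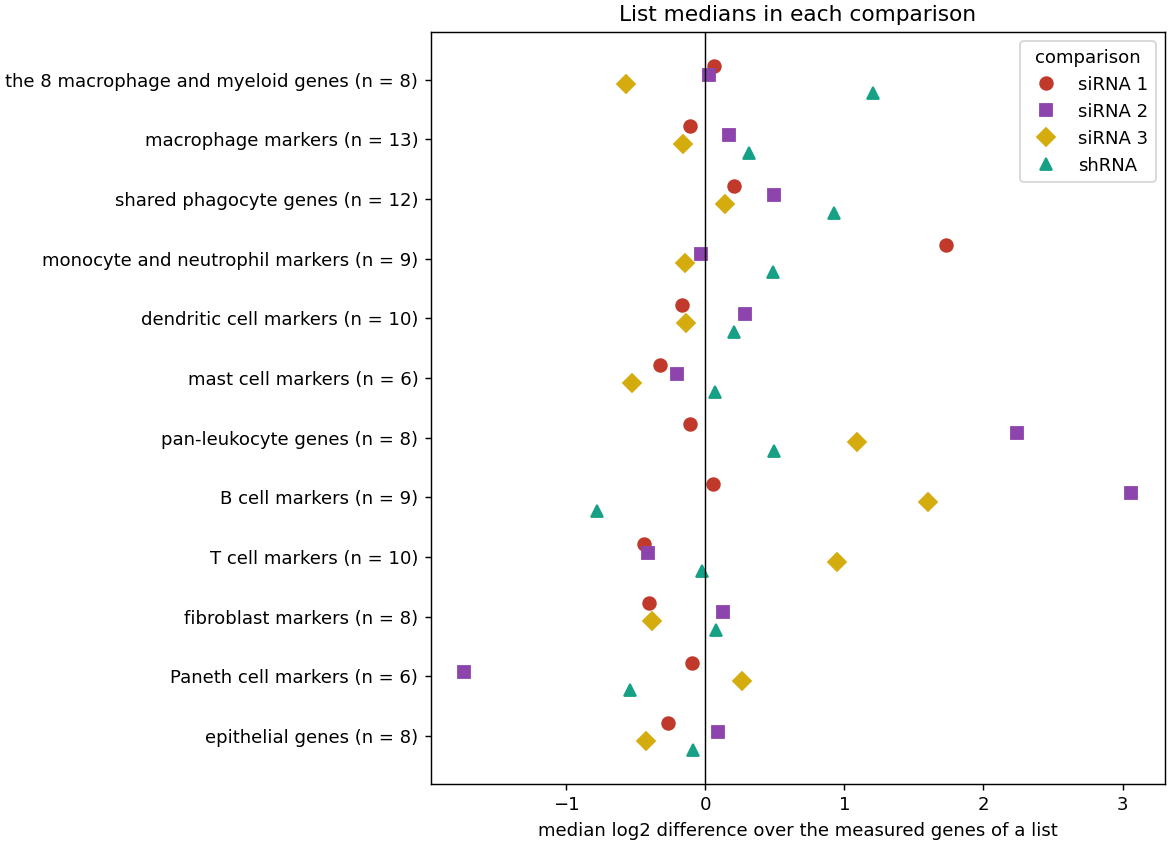
Median log2 difference (horizontal axis) over the measured genes of each list (rows, number of genes in brackets) in the 4 comparisons, shown by symbol. The 8 macrophage and myeloid genes and the shared phagocyte genes have their highest medians in the shRNA comparison, at 1.21 and 0.92, monocyte and neutrophil markers in siRNA 1, at 1.73, and B cell markers in siRNA 2, at 3.06.

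Likeness of pattern was measured by Pearson's r over the 8 arrays among 9500 named genes of at least median brightness, as a description only. The genes most like the average pattern of the 8 were Xylt1 (r = 0.90), Doc2a (0.89), Wfdc17 (0.88), Clca3a1 (0.86) and Mtr (0.86). Wfdc17 read 9.81 in shYAP/TAZ 1, against 5.80 in shLacZ 1. Csf1r was most like Vim (0.95) and Sirpa (0.92), a receptor of myeloid cells, and Itgam most like Pirb (0.97), an inhibitory receptor of myeloid and B cells, and Clca3a2 (0.96). For Mpeg1 they were Pag1 (0.97) and Snora30 (0.94), for Adgre1 Scube3 (0.90) and Doc2a (0.90), and for Cd68 Hyi (0.96) and Dcun1d3 (0.94). Cd14 was most like Arhgef3 (0.96) and Cc2d1b (0.93), Lyz2 most like Arid5b (0.98) and Bnip3l (0.96), and Itgax most like Gdpd1 (0.94) and Slc52a3 (0.92). With 8 arrays and so many genes compared, high values of r arise readily.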

How the data were processed

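Each sample was hybridised to 1 Affymetrix array as biotin-labelled material made with a WT Terminal Labeling kit, per the labels' protocols. The authors deposited linear intensity values for 28853 probe sets; their background correction, summarisation and scaling were not stated in the labels read here. The lowest deposited intensity of each array lay between 16.0005 and 16.0011. Intensities were put on the log2 scale, and since array medians lay more than 0.2 apart, the deposited values were quantile normalized. Probe sets naming 1 gene numbered 21789, with 21698 symbols updated through a RefSeq table of the GRCm38.p6 assembly. The brightest probe set by mean represented each of 19938 genes.

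Samples were grouped by title. The siRNA arm was fitted with limma 3.58.1 in R 4.3.3 (lmFit, eBayes, Benjamini-Hochberg over all genes, threshold 0.05), tested on simulated data first, and single genes also with an exact two-sided permutation test. Precision is limited by the small number of arrays. The named genes were the 8, Lyz1, Spi1, Itgb2, up to 3 genes per list with the widest siRNA differences, and those most alike in pattern. Genes outside this rule (C1qa, C1qb, C1qc, Ms4a7, Cd163, Timd4, Cx3cr1, Apoe, Trem2, Csf2rb, Fcer1g, Fcgr3, Ccr2, Tlr4, Ly96, Csf1, Il34, Mpo, Elane, Csf3r, Vim, Cxcr2, Retnlg) were added after their values were seen. The members and lists were chosen with earlier results of these data known. Alternatives covered normalization, a constant in the values, dim genes, probe sets, the prior, array weights, blocks and leaving out arrays.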

Additional observations from a re-analysis of the deposited data

Results flagged for a closer look

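Adgre1 and Lyz2 were lower in all 3 siRNA comparisons and higher in the shRNA comparison. Adgre1 differed by -0.06, -0.11 and -0.63 in siRNA 1 to 3 and by 1.43 in the shRNA comparison. Lyz2 differed by -0.17, -1.12 and -0.72 with siRNA and by 0.11 with shRNA. Mcpt1, a mast cell protease gene, differed by -0.37, -0.22 and -0.60 with siRNA and by 0.63 with shRNA. The median of 6 mast cell markers stood at -0.32, -0.21 and -0.53 with siRNA and at 0.0688 with shRNA. The median of 9 B cell markers ran the other way, at 0.05, 3.06 and 1.60 with siRNA and at -0.78 with shRNA. The difference between the arms was not tested for any of these, since the shRNA arm has 1 array per group.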

How the results depend on the processing

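The adjusted p of none of the 8 genes passed under any of the alternatives that kept it. Of 114 differences in these alternatives, 98 kept their direction, and the smallest adjusted p was 0.143 (limma). The trended prior, the replicate block within the siRNA arm, averaged probe sets and leaving out dim genes could not alter a difference. Their values therefore kept direction by construction. The block over all 8 arrays, also counted, took in the shRNA pair. The 8 genes were all higher in shYAP/TAZ 1 under every scaling, with the constant of 12 subtracted and with probe sets averaged. These settings were chosen for this count after the data were seen. Averaging probe sets could change nothing, since each of the 8 genes has 1 probe set. The constant raised the shRNA median to 1.42, but could not change a direction, since quantile normalization rests on ranks. Lyz2 stood at 0.024 with arrays centred on the 75th percentile and at 0.0273 without normalization. The medians over all genes were higher there, at 0.0407 and 0.044. Leaving out dim genes kept only Cd14 and Lyz2, with both higher in the shRNA comparison (median 0.55), both lower with siRNA, 0 highest in shYAP/TAZ 1 and 0 one way in all 4 comparisons. Array weights turned Itgax to 0.0915, moved Cd14 to -1.07, Lyz2 to -1.47 and Cd68 to -0.67, and gave 3896 genes at an unadjusted p under 0.05, with 0 called.

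Deviations of same-numbered siRNA arrays from their group means had r of 0.75, -0.13 and 0.57 (across genes, which are not independent replicates). Those of siYAP/TAZ 2 and siGFP 3, of different numbers, had r of 0.58. Deviations from a mean of 3 arrays are tied to one another, so these r values cannot decide whether shared numbers are pairs. The test did not treat shared numbers as pairs, although the labels name each control by number. The replicate block gave each of the 8 genes a smaller SE, such as 0.26 against 0.49 for Mpeg1, and none of the 8 passed. With the replicate block limma called 1 gene, B3gnt7. With the replicate block over 4 pairs and all 8 arrays it called 4 (B3galt5, B3gnt7, Olfr165 and Rdh7, named after their values were seen), left 1 of the 8 genes lower, and with the shRNA pair included the differences turned to 0.16 for Adgre1, 0.19 for Csf1r, 0.12 for Cd14, 0.051 for Cd68, 0.45 for Itgam and 0.0469 for Itgax.

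Leaving out 1 siRNA array at a time gave 0 to 13 called genes, the 13 without siYAP/TAZ 1, and a median of the 8 genes from -0.34 to 0.01. Csf1r ranged from -0.50 to 0.0571, Cd14 from -1.07 to 0.68, Cd68 from -0.39 to 0.18, Itgam from -0.34 to 0.20 and Itgax from -0.31 to 0.10. The ranges were -0.17 to 0.50 for Itgb2, -0.0166 to 0.49 for Spi1, -0.0077 to 1.43 for S100a9 and -0.12 to 1.12 for S100a8. The cause of these shifts was not tested, and dim signal limits the size of most differences given here.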

Other observations

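Dendritic cell markers, which label the other antigen-presenting myeloid cells of the gut wall, had 7 of 10 members higher in the shRNA comparison, none of them at least 2-fold (median 0.21). With siRNA, 7 of 10 had a higher mean in siYAP/TAZ (median 0.10), led by Irf8, a transcription factor of dendritic cells that B cells share, at 0.96 (SE 0.54), and Ccr7, a receptor that guides migrating dendritic cells, at 0.65 (SE 0.56). Without siYAP/TAZ 2 Ccr7 stood at 0.0481, and without siYAP/TAZ 3 Irf8 stood at 0.31. Irf8 read 8.93, 9.23 and 11.02 in siYAP/TAZ 1 to 3, against 9.27, 8.39 and 8.65 in siGFP 1 to 3. The MHC class II genes with which such cells present antigen had siRNA medians of -0.55, 0.89 and 2.44 in siRNA 1 to 3, and 0.09 in the shRNA comparison, where 4 of 6 were higher.

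Ligands and partners of the 8 genes showed no common direction: 5 of 10 were higher and 5 lower in the shRNA comparison (median 0.02). Csf1 and Il34, which both bind Csf1r, differed by -0.27 and -0.13 there. Icam1, a counter-receptor of CD11b, was the one of the 10 higher in siYAP/TAZ without overlap of the groups in the siRNA arm, at 0.53 (SE 0.32), which did not pass (limma, adjusted p = 1.00). Tlr4, the partner of Cd14, was lower without overlap, at 5.03, 5.35 and 5.44 in siYAP/TAZ 1 to 3, against 5.45, 5.62 and 5.53 in siGFP 1 to 3, a difference of -0.26 (SE 0.28) that did not pass either (limma, adjusted p = 1.00). All 6 mast cell markers had a lower mean in siYAP/TAZ (median -0.31), as had 53.6% of all genes. Kit stood at -0.55 (SE 0.40) and Mcpt1 at -0.40 (SE 0.27), and the groups of Mcpt1 did not overlap. Groups did not overlap for 1.6% of all genes higher and 2.99% lower in siYAP/TAZ. Tlr4 and Mcpt1 lay below the olfactory receptor gauge in every array.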
